A study of Mus musculus with 54 samples.

Results

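Acceptor microglia after 150 min of co-culture were compared with untreated microglia in the RNA of 10 of the 54 libraries of the series. The libraries were chosen by their titles: 4 are acceptors at 150 min and 6 are untreated controls. Untreated libraries that carry the same experiment number were summed, which gave 4 acceptor and 4 untreated units, each pair from 1 of 4 numbered experiments. All cells were primary C57BL/6 mouse microglia, grown with astrocytes from neonatal brains (cells from a pair of brains in each flask) in medium with L929 supernatant for 7–10 days and then shaken loose. The untreated group (Untreated_Ctrl) received no further agent that the labels name. The acceptors (Acceptors_150min) were stained with CellTracer Violet for 15 min and then shared a dish for 150 min with donor microglia, which had taken up 1 µM Atto-488-labelled alpha-synuclein (aSyn) for 14 h. Acceptors and donors were then separated by flow cytometry. The labels do not say whether untreated cells were sorted, so staining, co-culture and sorting cannot be told apart in this comparison. Other groups used below are acceptors at 0, 15, 30, 60 and 300 min, donors at 150 min, and libraries labelled aSyn_Donor, whose labels give no co-culture time and which are called aSyn-treated here. The passage was 3 in experiment 1, 1 in experiment 2, and 2 in experiments 3 and 4. Nothing in the labels says that the experiments used separate animals, so the p-values cannot be read as measuring a spread between animals. The main fit gives each experiment its own level. Its p-values measure the spread left after that, estimated over all 14 groups of the series.

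Microglia are the resident macrophages of the brain. They take up and degrade extracellular aSyn, the protein that accumulates in the neurons of people with Parkinson's disease, and can hand cargo to neighbouring cells. Activated microglia switch on NF-kB target genes for cytokines and chemokines, NRF2 target genes against oxidative stress, and genes of autophagy, which delivers cytoplasmic cargo to lysosomes. The comparison described here is about microglia to which aSyn was offered only through donor cells.

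The 10 libraries held 9407503 to 14896583 counts. Experiment 4 stood apart: the ribosomal RNA precursor Rn45s took 17.1–22.3% of its counts, against 4.77–9.04% in experiments 1 to 3. The labels also give experiment 4 its own run of facility numbers, so many of the results that depend on it are given with and without it. The 10 markers of microglia and macrophages, among them Csf1r, Itgam and Aif1, summed to 8493–11637 CPM (counts scaled to the library size) in the acceptors and 7926–13708 CPM in the untreated cells. None of these 10 was called. In libraries of this depth, 3 counts correspond to 0.113–0.303 CPM, which is the floor used here. This covers counting error only, since no molecular identifiers are stated.

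At 150 min the acceptors had higher transcripts of the SMAD inhibitor Skil, the autophagy receptor Sqstm1, the endotoxin co-receptor Cd14 and the chemokine genes Cxcl1 and Cxcl2. They had lower transcripts of the GTPase-activating protein gene Srgap2, the cell cycle gene Ccnd1 and DNA replication genes. Srgap2 stayed called whichever experiment was left out, whereas Cxcl2, Ccnd1 and several of the replication genes did not. Of 13169 genes tested, 630 were called at an adjusted p under 0.05 in a fit with the experiment number as a block, or 4.78%. There were 305 higher (2.32%) and 325 lower (2.47%), with a median absolute log2 fold change of 0.65. More than a 2-fold change was seen in 73 of the higher and 106 of the lower genes. In 561 of the 630 all 4 pairs moved in the same direction. Of all 13169 genes, 1534 rose and 1679 fell in all 4 pairs. In 39.0% of the 630 the 4 acceptor units did not overlap the 4 untreated units, with 134 genes wholly higher and 112 wholly lower. Over all genes tested that share was 4.56%, with 2.41% higher and 2.15% lower. The count depended on the block and on the number of groups in the fit. Leaving the block out gave 18 genes (0.137%), made up of 0.0759% that rose and 0.0607% that fell. With the block but only these groups in the fit, 52 genes passed.

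**Figure D1:**
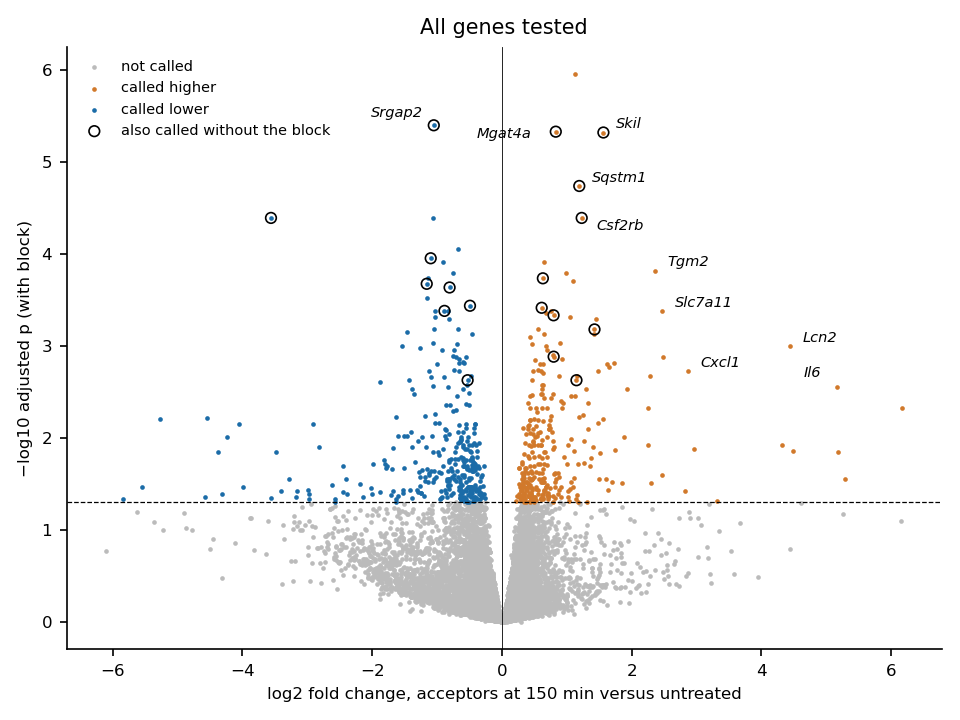
Each point is 1 of 13169 genes; the x axis is the log2 fold change of acceptors at 150 min against untreated cells and the y axis is −log10 of the adjusted p in the fit with the block, with the 0.05 threshold dashed. Orange and blue mark the 305 higher and 325 lower genes, and open circles mark the 18 genes called without the block as well.

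The 18 genes called in both fits were 10 that rose and 8 that fell, all in the same direction in 4 of 4 pairs. In 17 of them the groups did not overlap; the exception was Zfp263. Skil encodes SnoN, a repressor of SMAD transcription factors, and lies on chromosome 3 from 31095058 to 31122577 (plus strand, GENCODE M21, mm10). Its level in the acceptors was 84.9, 81.9, 116 and 186 CPM in experiments 1 to 4, against 22.8, 60.4, 39.5 and 30.3 CPM in the untreated cells. Every acceptor value was above every untreated value, with the smallest step in experiment 2. The log2 fold change was 1.56 ± 0.20 (SE; adjusted p = 4.74e-06), and it was 1.20 without experiment 4.

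Sqstm1 encodes p62, which binds ubiquitinated cargo and the autophagosome membrane, and lies on chromosome 11 from 50199366 to 50210827 (minus strand). It was measured at 942, 1074, 1391 and 1854 CPM in the acceptors and 507, 698, 463 and 525 CPM in the untreated cells. The lowest acceptor unit was above the highest untreated unit. Its log2 fold change was 1.19 ± 0.16 (adjusted p = 1.81e-05). Sqstm1 overlaps the opposite-strand gene Mrnip, and the use of strand in counting is not given in the sources used here.

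Csf2rb, the shared signalling subunit of the GM-CSF, IL-5 and IL-3 receptors, was at 270, 235.4, 278 and 471 CPM in the acceptors and 135, 140, 136 and 109 CPM in the untreated cells. That is a log2 fold change of 1.23 ± 0.18 (adjusted p = 4.03e-05), with the highest acceptor and the lowest untreated unit both in experiment 4. Without that experiment the change was 0.92. The value is uncertain in so far as reads could be split with its close paralog Csf2rb2.

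Mgat4a encodes a Golgi enzyme that branches N-glycans. It rose in every experiment, from 18.6, 25.6, 24.7 and 23.4 CPM in the untreated cells to 41.7, 42.6, 36.0 and 44.4 CPM in the acceptors (log2 fold change 0.83 ± 0.11, adjusted p = 4.64e-06). Cd14, the co-receptor that passes lipopolysaccharide to TLR4, was at 1456, 1348, 1618 and 2560 CPM in the acceptors. In the untreated cells it was at 840, 925, 894 and 409 CPM. The groups did not overlap, and the low untreated unit was that of experiment 4. Its log2 fold change of 1.15 ± 0.23 (adjusted p = 0.00235) became 0.73 (adjusted p = 0.0486) without that experiment.

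Odc1, the rate-limiting enzyme of polyamine synthesis, varied little in the untreated cells, at 24.5, 25.9, 26.7 and 28.0 CPM. In the acceptors it was at 48.0, 37.5, 78.1 and 137 CPM, and its log2 fold change was 1.43 ± 0.26 (adjusted p = 6.59e-04). Without experiment 4 the change was 1.01 (adjusted p = 0.00278). The remaining genes that rose in both fits changed by 0.61 to 0.80 on the log2 scale. They were Atg12 (described with autophagy), Lztfl1, a regulator of ciliary trafficking, the zinc finger gene Zfp263 and the non-coding transcript 1810026B05Rik, which shares its strand and position with Chd2.

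Srgap2, a GTPase-activating protein that bends membranes at cell protrusions, had the smallest p of the falling genes. It lies on chromosome 1 from 131285251 to 131527352 (minus strand). The acceptors held 46.8, 57.2, 53.2 and 46.6 CPM and the untreated cells 97.5, 138, 109 and 82.2 CPM. The fall was therefore of similar size in each experiment (log2 fold change -1.05 ± 0.13, adjusted p = 3.95e-06), and it was -1.13 without experiment 4.

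Dnmt1, the maintenance DNA methyltransferase, was at 24.5, 21.7, 23.7 and 24.5 CPM in the acceptors and 59.7, 37.5, 34.3 and 44.8 CPM in the untreated cells (log2 fold change -0.89 ± 0.15, adjusted p = 4.14e-04). Etv5, an ETS transcription factor downstream of receptor tyrosine kinases, fell by 1.16 on the log2 scale. Ints6l fell by 1.10, the membrane skeleton gene Epb41 by 0.81, the splicing factor gene Sf3a1 by 0.53 and the lysosomal lipid phosphatase gene Pip4p1 by 0.49. In all of these the highest acceptor unit was below the lowest untreated unit. All 18 genes stayed called when any 1 experiment was left out, and with only these groups in the fit Srgap2, Sqstm1 and Etv5 kept their call while the 14 other genes named here lost it.

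**Figure D2:**
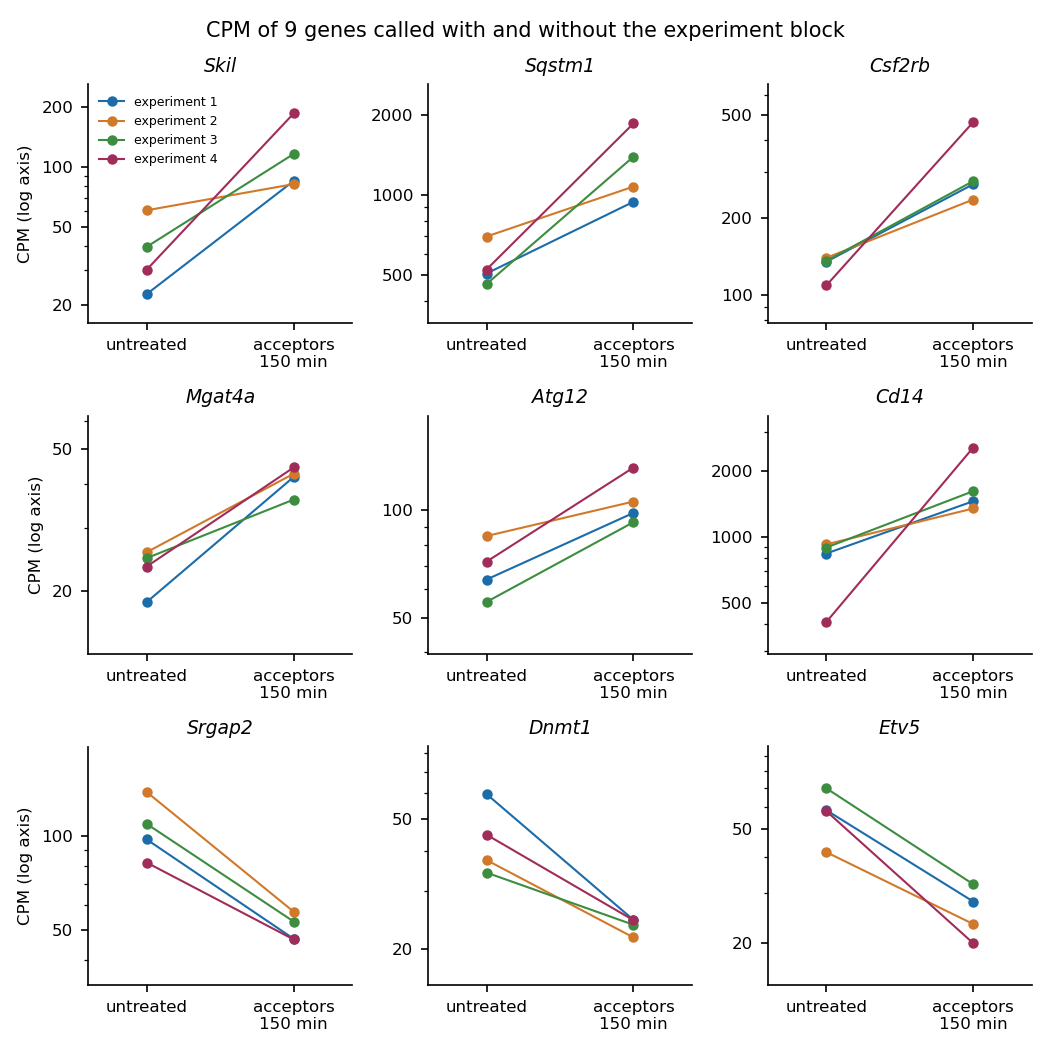
Values of 9 of the 18 genes called in both fits, in CPM on a logarithmic axis, with a line joining the untreated and the acceptor unit of each of the 4 experiments. In every panel the 4 acceptor points lie wholly above or wholly below the 4 untreated points; Cd14 and Csf2rb have their steepest line in experiment 4.

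The smallest p of all in the fit with the block belonged to Rnf149, a membrane-bound E3 ubiquitin ligase, which falls outside the naming rule and was picked after its values were seen. It was at 960, 846, 1362 and 2111 CPM in the acceptors and 497, 490, 639 and 678 CPM in the untreated cells. The groups did not overlap (log2 fold change 1.13 ± 0.13, adjusted p = 1.10e-06 with the block and 0.0616 without it).

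Experiment 4 carried the largest shift in 331 of the 630 called genes, against 107, 78 and 114 for experiments 1 to 3. Its median shift among them was 0.88 log2 units, compared with 0.56, 0.50 and 0.63. Apart from the 18 genes above, no gene named here was called in this comparison without the block. Genes that overlap an annotated gene on the opposite strand, such as Pip4p1 (Apex1), Map1lc3b (Zcchc14), Tgm2 (Rprd1b), Mcm7 (Cops6), Vcl (Ap3m1) and S100b (Dip2a), carry the same uncertainty as Sqstm1.

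Genes of the NF-kB and cytokine list were the pathway list with the largest called share. Of 44 tested members 15 rose and 1 fell (36.4%, against 4.78% of all genes), none of them in the fit without the block. The list's median log2 fold change was 0.71, against -0.03 over all genes tested. That median was 0.36, 0.16, 0.54 and 1.85 in experiments 1 to 4, so experiment 4 had the largest shift. Without experiment 4, 8 members were called higher and 2 lower and the median was 0.36. The part of the high Rn45s share of experiment 4 in this result was not tested.

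The chemokine genes Cxcl1 and Cxcl2 encode ligands of the neutrophil receptor CXCR2. Cxcl1 was at 6.06, 5.96, 12.7 and 62.2 CPM in the acceptors and 1.51, 1.35, 3.94 and 0.867 CPM in the untreated cells. The groups did not overlap, and its log2 fold change of 2.86 ± 0.57 (adjusted p = 0.00187) stayed past the threshold when any experiment was left out, at 1.91 without experiment 4 and 3.61 without experiment 3. Cxcl2 was at 108, 125, 157 and 759 CPM in the acceptors and 42.3, 61.5, 82.5 and 10.1 CPM in the untreated cells (1.89 ± 0.45, adjusted p = 0.00976). Here the highest acceptor and the lowest untreated value came from the same experiment, and the change was 1.08 (adjusted p = 0.0262) without it. The call was lost without experiment 1 (2.06, adjusted p = 0.0543) or experiment 2 (2.15, adjusted p = 0.0531).

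Feedback inhibitors of the pathway rose too. Nfkbia, which encodes IkB-alpha, was at 388, 393, 416 and 1406 CPM in the acceptors and 249.5, 258, 356 and 278 CPM in the untreated cells (0.93 ± 0.20, adjusted p = 0.00476). Its change in experiments 1 to 3 alone was 0.48 (adjusted p = 0.0996), which does not pass. Nfkbie, encoding IkB-epsilon, changed by 1.30 ± 0.27 (adjusted p = 0.00293) and by 0.59 (adjusted p = 0.0249) without experiment 4. Its acceptor values of 18.1, 20.6, 28.1 and 45.2 CPM met the untreated values of 13, 13, 18.1 and 5.43 CPM at the edge.

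Several secreted products rested on experiment 4. Il6 had 52 counts (4.11 CPM) in the acceptors of experiment 4 and 0 counts in the other 3 acceptor units. In the untreated cells it had 2 counts in experiment 4 and 0 elsewhere, so no fold is given. Its adjusted p was 0.00278 in edgeR with the block and 0.702 in DESeq2. Il12b, a subunit of IL-12 and IL-23, was at 0.195, 0.574, 0.266 and 6.71 CPM in the acceptors and at 0, 0, 0 and 0.264 CPM in the untreated cells (adjusted p = 0.00476, and 0.0988 in DESeq2). Lcn2, an iron-sequestering protein, was at 0.391, 0.502, 1.33 and 28.9 CPM against 0, 0.0872, 0.600 and 1.21 CPM (adjusted p = 0.00101, 0.0717 in DESeq2 and 0.356 without experiment 4). Ccl4, the single member that fell and also named after its values were seen, was at 363, 392, 173 and 102 CPM in the acceptors and 362, 720, 590 and 239.4 CPM in the untreated cells. The pair of experiment 1 was level (log2 fold change -1.04 ± 0.29, adjusted p = 0.0278), and the call was lost without experiment 2, 3 or 4 (adjusted p = 0.0938, 0.139 and 0.0935).

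The 10 largest rises that were shared by all 4 pairs at a mean of at least 5 CPM included Cxcl1, Cxcl2 and further inflammatory genes. Ptger2, a receptor for prostaglandin E2, was at 8.11, 10.7, 15.7 and 12.8 CPM in the acceptors and 1.31, 3.27, 1.37 and 3.36 CPM in the untreated cells. Its rise of 2.48 ± 0.48 (adjusted p = 0.00130) was 2.56 without experiment 4 and missed the threshold without experiment 3 (2.13, adjusted p = 0.0785). Ptgs2, the inducible cyclooxygenase that supplies prostaglandin synthesis, was at 16.0, 13.6, 8.17 and 108 CPM against 3.33, 4.93, 3.17 and 3.20 CPM. The groups were apart in both genes. For Ptgs2 the log2 fold change was 2.30 ± 0.65 (adjusted p = 0.0310), and it missed the threshold without experiment 1, 2 or 3 (adjusted p = 0.0851, 0.0848 and 0.110).

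Clec4e, the C-type lectin Mincle, changed by 2.25 ± 0.55 (adjusted p = 0.0119), at 36.0, 57.9, 191 and 106 CPM in the acceptors and 8.28, 16.7, 38.6 and 5.47 CPM in the untreated cells. It rose in every pair, and its adjusted p was 0.0664, 0.0595 and 0.127 without experiments 1, 2 and 3. Socs3, a feedback inhibitor of cytokine receptors, changed by 2.25 ± 0.49 (adjusted p = 0.00476), and its acceptor value in experiment 4 was 154 CPM against 9.83–13.4 CPM in the others. Without that experiment the change was 1.48 (adjusted p = 0.00260). Tgm2, a transglutaminase, rose by 2.36 ± 0.37 (adjusted p = 1.51e-04), with 6.65, 9.90, 50.6 and 63.1 CPM in the acceptors and 1.21, 5.10, 11.5 and 5.81 CPM in the untreated cells. Without experiment 4 its change was 1.75 (adjusted p = 7.77e-04). Nr4a2, an orphan nuclear receptor, and the uncharacterised transcript AI504432 complete the 10 with Slc7a11, which is given with the NRF2 genes; they rose by 2.46 and 1.74 and missed the threshold without experiment 4 (adjusted p = 0.0781 and 0.163), and Nr4a2 also without experiment 1 or 3 (adjusted p = 0.0983 and 0.139). The pattern receptor gene Tlr2 changed by 1.01 (adjusted p = 0.0119), and by 0.41 (adjusted p = 0.112) without experiment 4 and 1.15 (adjusted p = 0.0625) without experiment 3.

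Promoter letters of 4 NF-kB list members are shown because these genes moved together and hold a kB-type motif near the start site. The stretches are the 120 bases before the start in RefSeq (GRCm38.p6), 5′ to 3′ on the gene's strand. Capitals mark the letters GGG, any 3 bases and then TTCC, on either strand; overlapping matches run together. Cxcl1 is from chr5:90891125-90891244 (plus), Cxcl2 from chr5:90903779-90903898 (plus), Nfkbia from chr12:55492648-55492767 (minus) and Nfkbie from chr17:45555580-45555699 (plus).
Cxcl1: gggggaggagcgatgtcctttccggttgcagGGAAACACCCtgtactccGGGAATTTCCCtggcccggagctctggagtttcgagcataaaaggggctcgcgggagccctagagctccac
Cxcl2: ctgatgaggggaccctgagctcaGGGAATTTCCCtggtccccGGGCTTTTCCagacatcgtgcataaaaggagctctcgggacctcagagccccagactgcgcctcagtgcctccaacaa
Nfkbia: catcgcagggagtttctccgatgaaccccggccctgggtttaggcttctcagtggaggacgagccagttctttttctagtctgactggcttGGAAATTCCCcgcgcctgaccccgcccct
Nfkbie: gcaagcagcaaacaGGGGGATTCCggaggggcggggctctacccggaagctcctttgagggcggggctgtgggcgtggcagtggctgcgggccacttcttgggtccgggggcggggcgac
Of the 16 called members 14 had a promoter of 300 bases in that table, and 7 of these (50.0%) held the motif. It was found in 5 of 18 members that were not called (27.8%) and in 7.42% of the 10420 tested genes with a promoter, or 5.56% of all 32851 promoters. A match describes the letters and does not show that a factor binds there.

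Immediate early genes, which respond to a stimulus without new protein synthesis, were split. Of 41 tested, 4 rose and 2 fell (14.6%), with a median of 0.17. Klf4, a transcription factor of macrophage activation, was at 20.8, 16.4, 9.63 and 20.1 CPM in the acceptors and 5.05, 4.32, 2.66 and 9.76 CPM in the untreated cells (1.65 ± 0.33, adjusted p = 0.00169). All 4 pairs rose, although the groups overlapped by the acceptors of experiment 3. Btg1, an antiproliferative gene, rose by 0.89 ± 0.17 (adjusted p = 9.34e-04), and by 0.63 (adjusted p = 0.00817) without experiment 4. Jun, by contrast, was at 61.1, 61.3, 59.7 and 96.0 CPM in the acceptors and 119, 105, 91.9 and 142 CPM in the untreated cells (-0.72 ± 0.19, adjusted p = 0.0192), and Plk2, a stress-induced kinase, fell by 0.96 (adjusted p = 0.0234). Only the acceptor unit of experiment 4 overlapped the untreated range for Jun. Jun missed the threshold without experiment 1 or 2 (adjusted p = 0.128 and 0.104), and Plk2 without experiment 1, 3 or 4 (adjusted p = 0.126, 0.055 and 0.0729). Ier3 changed by 1.36 (adjusted p = 0.0202), by 0.70 (adjusted p = 0.246) without experiment 4 and by 1.22 (adjusted p = 0.178) without experiment 3.

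Genes of the NRF2 antioxidant list moved in 1 direction where they were called. Of 33 tested 8 rose and none fell (24.2%; median 0.23), and 1 of these, Sqstm1, was called without the block. Slc7a11, the cystine importer that feeds glutathione synthesis, was at 7.92, 4.66, 39.7 and 75.2 CPM in the acceptors and 2.93, 1.70, 6.34 and 5.47 CPM in the untreated cells. The groups overlapped because experiments 1 and 2 were low in both, but every pair rose (2.47 ± 0.43, adjusted p = 4.14e-04). Without experiment 4 the change was 1.95 (adjusted p = 0.00600). Osgin1, an oxidative stress response gene, was at 13.9, 19.3, 26.6 and 30.2 CPM against 9.69, 13.1, 7.63 and 10.4 CPM (1.12 ± 0.24, adjusted p = 0.00346), and missed the threshold without experiment 3 (0.85, adjusted p = 0.107).

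Gclm, the modifier subunit of glutamate-cysteine ligase, was at 55.0, 25.4, 52 and 364 CPM in the acceptors and 47.6, 10.6, 27.3 and 81.6 CPM in the untreated cells. Srxn1, which repairs overoxidised peroxiredoxins, was at 166, 136, 389 and 921 CPM against 189, 116, 121 and 181 CPM, so that experiment 1 moved the other way. The metallothionein gene Mt2 changed by 0.87 (adjusted p = 0.0265). Without experiment 4 none of these 3 passed: the log2 fold changes were 0.69 for Gclm, 0.48 for Srxn1 and 0.70 for Mt2 (adjusted p = 0.292, 0.180 and 0.172). They were also lost without experiment 2 (adjusted p = 0.102, 0.0595 and 0.241) and without experiment 3 (adjusted p = 0.0851, 0.218 and 0.0628). The number of called members was 9, 3, 2 and 3 when experiments 1, 2, 3 and 4 were left out in turn.

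The 120 bases before the start are shown for 2 members because they hold the AP-1-type letters TGANTCA (in capitals, either strand), which also lie at the centre of a Maf recognition element. Srxn1 is from chr2:152105404-152105523 (plus) and Mt2 from chr8:94172498-94172617 (plus).
Srxn1: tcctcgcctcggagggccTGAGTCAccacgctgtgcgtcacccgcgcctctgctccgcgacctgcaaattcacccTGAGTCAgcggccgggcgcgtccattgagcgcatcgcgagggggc
Mt2: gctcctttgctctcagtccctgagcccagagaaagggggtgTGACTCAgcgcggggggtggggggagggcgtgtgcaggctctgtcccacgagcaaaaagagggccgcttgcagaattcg
Of the 8 called members 7 had a promoter in the table and 3 of these held the motif (42.9%). The share was 2 of 20 among members not called (10.0%) and 6.39% among all tested genes with a promoter. For the longer antioxidant response element letters TGACNNNGC, which overlap the first motif, the shares were 42.9% of the called and 40% of the uncalled members, against 16.8% of all tested genes.

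Autophagy genes rose, and their calls held without experiment 4, although that experiment had the largest median. Of 32 tested members 7 rose and none fell (21.9%), and the medians of the 4 experiments were 0.25, 0.18, 0.15 and 0.31. The median over the list was small, at 0.20. In 15 members all 4 pairs rose, against 1534 of all 13169 genes tested. In 6 members the groups did not overlap, with the acceptors higher, against 2.41% of all genes. Leaving out each experiment in turn left 6, 6, 7 and 7 called members, and 2 (Sqstm1 and Atg12) were called without the block. Without experiment 4 the log2 fold changes of Sqstm1, Atg12, Map1lc3b, Tax1bp1 and Atg2a were at their smallest, at 1.00, 0.55, 0.36, 0.46 and 0.48. Those of Gabarapl1 and Wipi2 were then 0.61 and 0.65, which was not their smallest value.

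Atg12, the ubiquitin-like protein that is joined to ATG5 to build the autophagosome, was at 98.4, 106, 92.7 and 132 CPM in the acceptors and 64.0, 84.7, 55.4 and 71.8 CPM in the untreated cells. Each acceptor unit exceeded each untreated unit (0.63 ± 0.10, adjusted p = 1.83e-04). Map1lc3b encodes LC3B, the lipidated marker of the autophagosome membrane. It was at 327, 300, 304 and 345 CPM against 264.1, 241.5, 219 and 205 CPM, also without overlap (0.46 ± 0.09, adjusted p = 9.43e-04). Gabarapl1, of the same protein family as LC3B, changed by 0.61 ± 0.13 (adjusted p = 0.00331; 0.0630 without experiment 1).

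Tax1bp1, a cargo receptor like p62, was at 173, 140, 159 and 286 CPM in the acceptors and 118, 112, 113 and 157 CPM in the untreated cells (0.56 ± 0.10, adjusted p = 6.59e-04); all pairs rose, and the groups overlapped through the untreated unit of experiment 4. Atg2a, a lipid transfer protein that feeds the growing membrane, changed by 0.62 ± 0.13 (adjusted p = 0.00265). Wipi2, which recruits the ATG12 conjugation machinery and was named after its values were seen, changed by 0.69 ± 0.16 (adjusted p = 0.00976; 0.0644 and 0.0596 without experiments 2 and 3). The lysosome list did not show this: of 40 tested, Ctsl and Gla rose, Ppt1 fell and the median was 0.06. Ctsl, the protease cathepsin L, was at 832, 767, 721 and 1051 CPM in the acceptors and 550, 494, 511 and 616 CPM in the untreated cells (0.63 ± 0.13, adjusted p = 0.00265). Ctsl stayed called whichever experiment was left out, Gla stayed called without experiment 2 only, and Ppt1 in none of these fits.

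**Figure D3:**
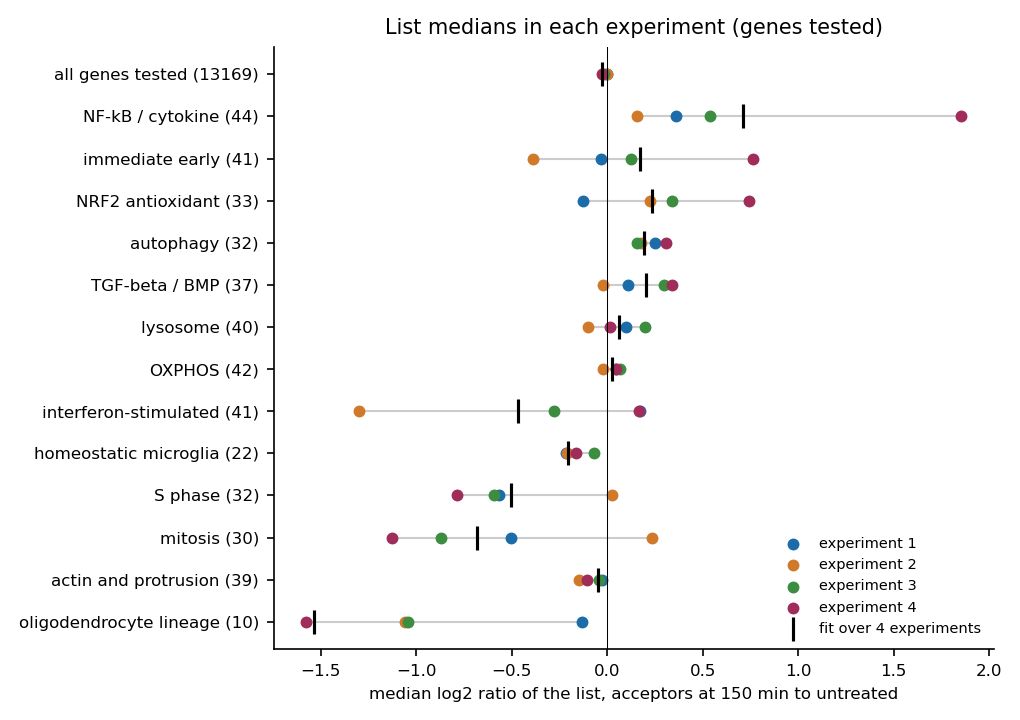
Median log2 ratio of the genes of each list, acceptors at 150 min to untreated, in each of the 4 experiments (coloured points) and in the fit over all of them (black bar); the number of genes tested is in brackets. The autophagy points lie close together between 0.15 and 0.31, the NF-kB points spread from 0.16 to 1.85, and the S phase and mitosis points of experiment 2 lie on the other side of 0 from the rest.

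The TGF-beta and BMP list, which holds ligands, receptors, inhibitors and targets of these growth factors, had 5 members that rose and 2 that fell of 37 tested (18.9%). The median was 0.20. The receptor genes went opposite ways. Tgfbr1, the type I receptor kinase, was at 141, 97.0, 115 and 134 CPM in the acceptors and 60.9, 43.6, 93.1 and 59.0 CPM in the untreated cells, without overlap (0.94 ± 0.20, adjusted p = 0.00420; 0.0734 without experiment 1). Tgfbr2, the type II receptor that binds the ligand, was at 99.9, 85.2, 115 and 93.3 CPM against 172, 130, 144 and 101 CPM (-0.46 ± 0.12, adjusted p = 0.0211; 0.234, 0.165 and 0.0722 without experiments 1, 2 and 3).

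Nrros, which holds latent TGF-beta on the microglial surface, fell in every experiment, to 157, 181, 185 and 142 CPM from 362, 433, 290 and 220 CPM. The groups did not overlap (-0.92 ± 0.17, adjusted p = 0.00111; 0.0519 without experiment 2). Among the targets, Id3 changed by 1.61 ± 0.45 (adjusted p = 0.0281) and Tgfbi by 1.16 ± 0.34 (adjusted p = 0.0414), and both lost their call whichever experiment was left out (adjusted p of 0.0553 to 0.110 for Id3 and 0.0561 to 0.144 for Tgfbi). Skil was the member of this list called in both fits.

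The proliferation lists had negative medians in experiments 1, 3 and 4. Of 32 tested S-phase genes 7 fell and none rose (21.9%), and the median was -0.50. By experiment the median was -0.57, 0.03, -0.59 and -0.79. Among these, Mcm2, Mcm3, Mcm6 and Mcm7 encode subunits of the replicative helicase. Mcm2 was at 13.3, 9.62, 10.5 and 7.42 CPM in the acceptors and 27.3, 9.55, 24.2 and 23.9 CPM in the untreated cells; the pair of experiment 2 was level, and its untreated unit was the lowest of the 4 (-1.0 ± 0.20, adjusted p = 0.00156). Mcm3 fell by 0.69, Mcm7 by 0.59 and Mcm6 by 0.30 on the log2 scale. Without experiment 3 their adjusted p was 0.0596, 0.176 and 0.0922, and without experiment 4 it was 0.0117, 0.159 and 0.193. Without experiment 1 Mcm7 and Mcm6 were at 0.138 and 0.146, and Mcm6 at 0.145 without experiment 2.

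Uhrf1, which brings DNMT1 to replicating DNA, was at 10.3, 5.31, 5.64 and 4.98 CPM in the acceptors and 28.7, 6.63, 17.1 and 19.2 CPM in the untreated cells (-1.46 ± 0.35, adjusted p = 0.00961; 0.102 without experiment 3). Cdca7 fell by 1.78 (adjusted p = 0.0211; 0.141 and 0.165 without experiments 1 and 4). Leaving out experiments 1, 2, 3 and 4 in turn left 3, 9, 2 and 3 called S-phase genes. Of 30 mitosis genes 1 was called, the spindle gene Tpx2 (-0.68, adjusted p = 0.00868; 0.148 without experiment 2), although 29 of the 30 had a negative log2 fold change and the median was -0.68. Ccnd1, the cyclin of the G1 phase, was at 136, 103, 119 and 70.3 CPM in the acceptors and 313, 349, 250.9 and 601 CPM in the untreated cells, without overlap (-1.99 ± 0.52, adjusted p = 0.0193). Its change was -1.33 without experiment 4, and its adjusted p was 0.0885 and 0.0928 without experiments 1 and 2.

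Ccnd1 was 1 of the 10 largest falls shared by all pairs at a mean of at least 5 CPM. Of the others, Tox2, an HMG-box gene, was at 55.0, 48.6, 52.8 and 39.7 CPM in the acceptors and 233.8, 126, 119 and 149 CPM in the untreated cells (-1.70 ± 0.45, adjusted p = 0.0220). Tln2, encoding the integrin adaptor talin 2, was at 10.1, 7.89, 4.91 and 4.26 CPM against 27.5, 14.4, 24.6 and 20.7 CPM (-1.88 ± 0.39, adjusted p = 0.00247). The groups were apart in both genes. Sncaip encodes synphilin-1, a protein named for its binding to aSyn, and was at 6.84, 6.03, 3.39 and 3.24 CPM against 19.7, 9.68, 16.4 and 15.2 CPM, also without overlap (-1.77 ± 0.47, adjusted p = 0.0200). Tln2 stayed called whichever experiment was left out. Tox2 and Sncaip kept their call without experiment 4 only; their adjusted p otherwise reached 0.115 and 0.171. The 10 also held Asb10, Nr2f1, Sparc and the genes Bcas1 and Apod, which are known from oligodendrocytes. Bcas1 fell by 2.91 (adjusted p = 0.00708), and its adjusted p was 0.0601 without experiment 3. Asb10 fell by 2.00 (adjusted p = 0.0403), Nr2f1 and Apod by 1.81 each (adjusted p = 0.0174 and 0.0192) and Sparc by 1.64 (adjusted p = 0.0457). Asb10, Nr2f1 and Apod kept their call in 1 of the 4 fits that left out an experiment, with an adjusted p of up to 0.215, 0.125 and 0.250 in the others. Sparc lost its call whichever experiment was left out, at an adjusted p of 0.0553 to 0.199.

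Transcripts that mark homeostatic microglia were little changed as a list: 3 of 22 fell, none rose (13.6%) and the median was -0.20. The purinergic receptors P2ry12 and P2ry13 guide microglial processes towards nucleotides. P2ry12 was at 5.47, 5.45, 6.04 and 2.13 CPM in the acceptors and 7.47, 12.3, 8.23 and 4.22 CPM in the untreated cells (-0.81 ± 0.23, adjusted p = 0.0360), and its call was lost whichever experiment was left out. The adjusted p was then 0.0673 to 0.253. P2ry13 changed by -1.26 ± 0.36 (adjusted p = 0.0332), and was called in 1 of the 4 fits that left out an experiment. Sparc was the third. Both receptor genes overlap the opposite-strand gene Med12l.

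In the list of actin and protrusion genes 5 of 39 fell and none rose (12.8%; median -0.05). Myo1e, a membrane-linked myosin, was at 129, 117, 99.4 and 102 CPM in the acceptors and 271, 168, 199 and 195 CPM in the untreated cells, without overlap (-0.90 ± 0.18, adjusted p = 0.00217). Actb fell by 0.44 (adjusted p = 0.00894) and Actg1 by 0.49 (adjusted p = 0.0344); these actin genes are near-identical, so reads could be split between them. Vcl fell by 1.20 and Lcp1 by 0.34. With 1 experiment left out, the adjusted p reached 0.0911 for Actb, 0.177 for Actg1, 0.372 for Vcl and 0.203 for Lcp1. Srgap2 and Tln2, described above, were not on that list.

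Members called singly in other lists were Trib3 in the ER stress list (1.01), Smpdl3a among LXR targets (0.57), Adora2b among chemoattractant receptors (1.63) and Ctsl in the disease-associated microglia list. Trib3, Smpdl3a and Adora2b each kept their call in 1 of the 4 fits that left out an experiment, and Ctsl in all 4. Adora2b changed by 0.77 (adjusted p = 0.309) without experiment 4. The Fc and scavenger receptor list had Tlr2 and Cd14. No member was called in the lists for oxidative phosphorylation (0 of 42, median 0.03), glycolysis and hypoxia (0 of 29, -0.02), heat shock (0 of 18, -0.05), Parkinson's disease and synuclein (0 of 15, -0.08) or antigen presentation (0 of 17, -0.10). Interferon-stimulated genes had 0 of 41 called with a median of -0.46, which was 0.17, -1.30, -0.28 and 0.17 in experiments 1 to 4 and so changed sign between experiments.

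Markers of oligodendrocytes were lower in the acceptors. Of 10 oligodendrocyte lineage markers 6 fell (60%, against 4.78% of all genes), with a median of -1.53. The fall was not particular to 150 min: against the same untreated units the median was -1.02 to -1.93 in acceptors at the other times. It was -1.41 in aSyn-treated cells and -1.93 in donors at 150 min. Between acceptors at 150 and 0 min the median was -0.10, and 0 of 10 were called. Mag, which encodes a myelin adhesion protein, was at 1.56, 3.52, 2.79 and 3.08 CPM in the acceptors and 4.84, 4.01, 16.0 and 6.18 CPM in the untreated cells. The groups did not overlap, and the untreated unit of experiment 3 was the highest (-1.51 ± 0.36, adjusted p = 0.00961). The myelin genes Mbp and Cnp fell by 0.50 and 0.67, and the lineage transcription factors Sox10 and Olig1 by 2.45 and 1.71. Olig1 was at 4.89, 1.44, 42.8 and 12.8 CPM against 4.44, 6.50, 84.9 and 75.3 CPM, so experiment 1 did not share the fall. Leaving out experiment 3 gave Mag, Mbp, Cnp, Sox10 and Olig1 an adjusted p of 0.190, 0.151, 0.0730, 0.119 and 0.111. Mag, Mbp and Cnp also lost their call without experiment 1 (0.0711, 0.0892 and 0.0870), Cnp, Sox10 and Olig1 without experiment 2 (0.156, 0.139 and 0.196), and Sox10 and Olig1 without experiment 4. In that last fit Sox10 was at -1.67 (adjusted p = 0.216) and Olig1 at -1.08 (adjusted p = 0.281).

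The 10 oligodendrocyte markers summed to 151, 164, 274 and 112 CPM in the acceptors and 275, 287, 704 and 271 CPM in the untreated cells, so that the groups overlapped through the acceptors of experiment 3 and the untreated cells of experiment 4. The number called was 3, 3, 1 and 4 when experiments 1 to 4 were left out in turn. Astrocyte markers summed to 14.5, 12.8, 43.0 and 46.6 CPM against 12, 20.4, 96.4 and 171 CPM. All 11 tested had a negative log2 fold change, with a median of -1.41. The median was -0.02 in experiment 1. Of the 11, 1 was called, S100b (-2.45 ± 0.64, adjusted p = 0.0200). Its adjusted p was 0.0513, 0.0669 and 0.151 without experiments 1, 2 and 3. Against the same untreated units the astrocyte median was -1.43 to -1.87 in acceptors at the other times. Neuron markers summed to 2.08–19.9 CPM in the acceptors and 4.27–32.5 CPM in the untreated cells, and 0 of 6 tested were called. The neuron median was -1.20, and 5 of the 6 had a negative log2 fold change. The fibroblast and mural list reached 30.0 CPM at most in the acceptors and 23.9 CPM in the untreated cells, and the lymphocyte and granulocyte list stayed at or below 1.11 CPM. Endothelial markers summed to 45.8–64.4 CPM against 53.0–97.4 CPM, and perivascular macrophage and monocyte markers to 136–240 CPM against 197–296 CPM, with no member called. In the acceptors the defining markers Snap25, Stmn2, Gad1, Slc17a7, Ntsr2, Rgs5 and Lyve1 had at most 3 counts in any unit. In bulk RNA, fewer cells of a type and less RNA per cell cannot be told apart. These markers moved with the group in the same units as the falls in Bcas1, Apod and Sparc, and their part in those falls was not tested.

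**Figure D4:**
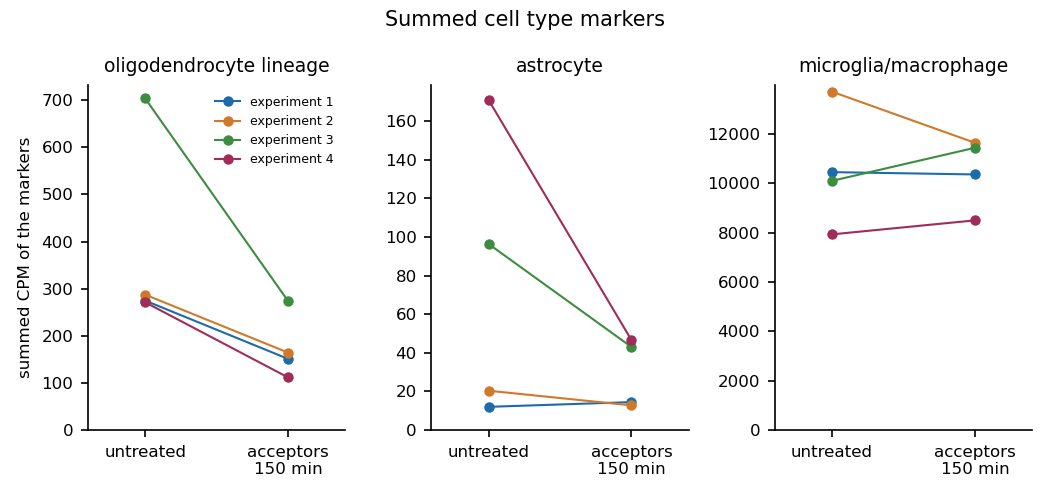
Summed CPM of marker genes in untreated cells and acceptors at 150 min, with 1 line per experiment and axes from 0. The oligodendrocyte sums are lower in the acceptors of all 4 experiments, the astrocyte sums in experiments 2, 3 and 4, and the microglia and macrophage sums stay between 7926 and 13708 CPM.

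The acceptors at 150 min were also set against acceptors at 0 min, which number 3 units. The protocol lists co-culture times from 15 min on, so how the 0 min cells were handled is not stated. In edgeR over all groups no gene was called with the block, where 977 genes had an unadjusted p under 0.05, and none without it, where 486 did. DESeq2 called 10, and edgeR with only these groups in the fit called 1. In the edgeR fits over all groups the genes named above had therefore no detected difference between 0 and 150 min. The log2 difference was 0.97 for Skil (adjusted p = 0.192), 0.46 for Sqstm1 (adjusted p = 0.511), -0.40 for Srgap2 (adjusted p = 0.444) and 0.05 for Atg12 (adjusted p = 0.968). Against the same untreated units, 131 genes were called in acceptors at 0 min, 296 at 15 min, 474 at 30 min, 527 at 60 min, 630 at 150 min and 82 at 300 min. In acceptors at 0, 15, 30, 60 and 300 min, 4, 7, 7, 11 and 3 of the 32 autophagy genes were called higher, none lower. S-phase genes called lower were, in the same order, 4, 7, 5, 8 and 5 of 32, with none higher. NF-kB list members called higher were 3, 4, 4, 6 and 2 of 44, with none lower. These comparisons share their controls, and the 0 and 300 min groups have 3 units where the others have 4.

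Skil averaged 38.3 ± 16.3 CPM (SD, n = 4) in untreated cells and, in acceptors, 54.9 ± 14.0 CPM at 0 min (n = 3), 88.3 ± 18.5 CPM at 60 min, 117 ± 48.5 CPM at 150 min (both n = 4) and 71.5 ± 22.5 CPM at 300 min (n = 3). The 150 min mean was the highest, with a spread that covers the 60 and 300 min means. Srgap2 went from 107 ± 23.8 CPM in untreated cells to 71 ± 10.1 CPM at 0 min and 50.9 ± 5.16 CPM at 150 min, and stood at 90.0 ± 4.02 CPM at 300 min. Etv5 went from 56.9 ± 11.5 CPM in untreated cells to 38.4 ± 9.98 CPM at 0 min and 25.8 ± 5.31 CPM at 150 min, and was at 30.4 ± 7.31 CPM at 300 min. Ccnd1 averaged 378 ± 154 CPM in untreated cells, 127 ± 30.7 CPM at 0 min, 107 ± 27.9 CPM at 150 min and 262.2 ± 85.6 CPM at 300 min.

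**Figure D5:**
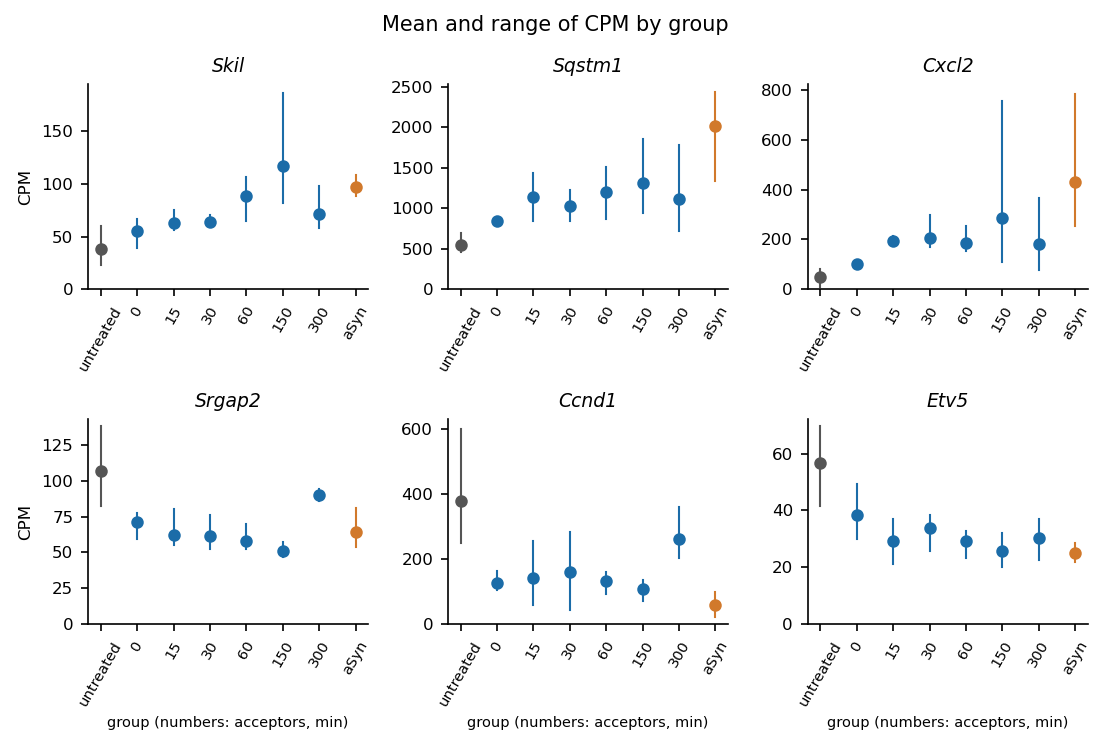
Mean CPM (points) and the range over experiments (lines) of 6 genes in untreated cells, in acceptors at each co-culture time in min, and in aSyn-treated cells (aSyn_Donor), on axes from 0. The mean of Etv5 is below that of untreated cells at every acceptor time, and Srgap2 and Ccnd1 are lowest among acceptors at 150 min and higher at 300 min.

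A direct contrast asks how the acceptors differed from microglia that were given aSyn themselves. It called 732 genes with the block (5.56%; 297 or 2.26% higher and 435 or 3.3% lower in acceptors), 22 (0.167%) without it and 2 when only these groups entered the fit. Of the 630 genes of the comparison with untreated cells, 87 (13.8%) were among them. The clearest difference was in Adgre5, the adhesion receptor CD97, which averaged 5.75 ± 2.83 CPM in acceptors and 81.1 ± 8.25 CPM in aSyn-treated cells (log2 difference -3.86, adjusted p = 2.22e-19). In untreated cells it was at 3.04 ± 0.62 CPM, and the acceptors exceeded these by 0.91 (adjusted p = 0.00396; 0.0535 without experiment 3). Adgre5 overlaps Ddx39 on the opposite strand.

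Some genes that rose in acceptors were higher still in aSyn-treated cells. Sqstm1 was lower in acceptors by 0.63 (adjusted p = 0.0157), Slc7a11 differed by -1.81 (adjusted p = 0.00154), Tgm2 by -1.54 (adjusted p = 0.00516), Klf4 by -1.30 (adjusted p = 0.00828) and Lcn2 by -3.71 (adjusted p = 7.63e-05). Of the NF-kB list 10 members were lower in acceptors and none higher. Other genes that rose went the opposite way: Mt2 was higher in acceptors by 1.49 (adjusted p = 1.63e-04) and Map1lc3b by 0.28 (adjusted p = 0.0412). Mcm6, which fell in acceptors, was lower still in aSyn-treated cells, with acceptors higher than these by 0.47 (adjusted p = 0.00150). For Skil the difference was 0.23 (adjusted p = 0.522), for Csf2rb -0.26 (adjusted p = 0.406) and for Srgap2 -0.34 (adjusted p = 0.105), and none of these passed.

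Donors at 150 min of co-culture were compared in the same way. The contrast called 684 genes with the block (5.19%; 295 or 2.24% higher and 389 or 2.95% lower in acceptors) and 22 (0.167%) without it, and 80 (12.7%) of the 630 genes were among them. Adgre5 differed by -3.82 (adjusted p = 3.07e-19), Sqstm1 by -0.62 (adjusted p = 0.0166), Slc7a11 by -1.76 (adjusted p = 0.00180) and Mt2 by 1.57 (adjusted p = 8.65e-05). Tox2 was higher in acceptors by 1.86 (adjusted p = 0.0144), at 49.0 ± 6.75 CPM against 16.2 ± 10.3 CPM in donors.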

How the data were processed

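The authors deposited a table of raw counts per gene (the counts used here) and a table of normalized signal values, which equalled the counts divided by a size factor per library within a tolerance of 0.05 for 100% of values and served only for that check. Libraries were QuantSeq 3′ FWD single reads, per the labels' protocols. STAR, Partek and DESeq2 and the build mm10 are named in the submitters' processing notes, without versions or roles; the use of strand is not given in the sources used here. Untreated libraries with the same experiment number were summed. They differed by a chi-square per degree of freedom of 12.1 and 10.3, against 24.2–288 for untreated libraries of different numbers.

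Counts were tested with edgeR 4.0.16 (quasi-likelihood, TMM, filterByExpr with a minimum count of 10) on all 52 units in 14 groups, with the experiment number as a block and Benjamini-Hochberg adjustment over 13169 of 16632 listed genes. Every adjusted p in the text is from that test unless another is named. The standard error was the log2 fold change divided by the square root of the F statistic. CPM used TMM-scaled library sizes. Same-numbered acceptor and untreated units deviated together (correlation 0.39 to 0.58 over genes, against -0.52 to 0.28 for other pairs), and the blocked fit is the main one because units are paired by number. The edgeR fit was also run on counts simulated from the same fit with the block. That run cannot test the choice of the block or the part of experiment 4, because the simulation takes the fit as given.

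The comparison, its gene lists and the tests were chosen with earlier results of these data known. Named genes were those called both with and without the block, the 10 largest rises and falls shared by all pairs at a mean of at least 5 CPM, up to 6 called members of each list, up to 5 genes each way from each direct contrast, and cell type markers; Rnf149, Ccl4 and Wipi2 were added after their values were seen. Some genes that the rule selects are not reported here. Alternatives were no block, these groups only, RLE scaling, other count filters, DESeq2, either untreated library alone, no ribosomal or mitochondrial genes, and each experiment left out. Positions are from GENCODE M21 and promoters from RefSeq.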

Additional observations from a re-analysis of the deposited data

Results flagged for a closer look

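Among 180 groups of 4 values examined for the named genes (on log2 of CPM plus 1), 19 held a unit far from the others, or 10.6%; chance gives about 1 in 20. Of these, 15 were units of experiment 4. Acceptors of experiment 4 were high for Socs3 (154 CPM against 9.83–13.4 CPM in the others), Lcn2 (28.9 CPM), Il6 (4.11 CPM), Il12b (6.71 CPM), Nfkbia (1406 CPM against 388–416 CPM), Jun (96.0 CPM against 59.7–61.3 CPM) and Btg1 (775 CPM against 292–328 CPM). They were low for Cdca7 (0.395 CPM), P2ry12 (2.13 CPM) and P2ry13 (0 CPM). Untreated cells of experiment 4 stood apart for Csf2rb (109 CPM against 135–140 CPM), Cd14 (409 CPM against 840–925 CPM), Tax1bp1 (157 CPM against 112–118 CPM), Il6 (0.0754 CPM) and Il12b (0.264 CPM). For Il6 and Il12b the other untreated units were at 0 CPM. The untreated Il6 value is under the floor of 0.113 CPM for that unit, so this flag carries no weight. The remaining 4 were the acceptors of experiment 3 for Lztfl1 (23.4 CPM) and of experiment 1 for Uhrf1 (10.3 CPM), and the untreated cells of experiment 2 for Ptgs2 (4.93 CPM) and Mcm2 (9.55 CPM).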

How the results depend on the processing

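The replicate block decided most calls. Values here are the share of tested genes called. Without the block it was 0.137% against untreated cells (18 genes; 0.0759% higher, 0.0607% lower), 0.167% against aSyn-treated cells and 0.167% against donors at 150 min. With only the groups compared in the fit, the block gave 0.447% against untreated cells (52 genes; 0.112% higher, 0.335% lower), 0.0174% against aSyn-treated cells, 0.13% against donors and 0.00855% (1 gene) against acceptors at 0 min. Leaving out 1 experiment at a time gave 1.83% to 3.19% against untreated cells (0.939% to 1.59% higher, 0.886% to 1.88% lower), 1.81% to 3.81% against aSyn-treated cells and 1.87% to 3.26% against donors. The lowest share against untreated cells came without experiment 3. DESeq2 called 855 genes against untreated cells, with 3.8% lower, and 0.0759% (10 genes) against acceptors at 0 min. RLE scaling gave 628 genes, 263 of them higher. Of 90 named genes, 17 kept their call without the block, 17 of the 87 that could be tested kept it with only these groups in the fit, 90 with RLE scaling and 87 with DESeq2, and 32 kept it in all 4 fits that left out an experiment. No named gene reversed direction under any of these. Genes under the floor of 0.113–0.303 CPM could not be compared at this depth.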
